A study of Gossypium hirsutum with 16 samples.

Results

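The loci described here are unannotated transcribed loci of upland cotton (Gossypium hirsutum). They are listed under IDs of the form Gossypium_hirsutum_newGene_2353, written newGene_2353 below. Their RNA was present under one label and absent or at a far lower level under the other. They were chosen by their FPKM (fragments per kilobase of transcript, scaled to the mapped fragments of the library) in the libraries labelled silenced and control. A locus was taken when it stood at 1 FPKM or more in all 8 libraries of one label and when the lowest of these 8 values was over 8 times the highest value under the other label. Of 8125 newGene IDs among 70422 IDs in all, 77 met this rule. In 45 of them the RNA was present in the silenced libraries (silenced-on loci), and in 32 it was present in the controls (control-on loci). Because the difference between silenced and control libraries made the choice, it is given below as a description, with no test.

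Messenger RNA was sequenced from the shoot apex of seedlings in 16 libraries, 4 in each of 4 groups: strain 3798 control, 3798 silenced, Jinxian-short branch (JX) control and JX silenced. Strain 3798 is labelled nulliplex-branch and JX short fruit branch, and in the silenced groups GhBRC1 was the target of virus-induced gene silencing (VIGS). The labels name no treatment for the control plants and leave unsaid if each library is its own plant, so the spread that p-values measure here may be a technical one. Gene names are not tied to the IDs by any source used here, so neither the level of GhBRC1 nor markers of the shoot apex were checked, and silenced and control are used as labels. In whole tissue, fewer cells with a transcript and less of it per cell cannot be told apart.

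BRC1 is a transcription factor of the TCP family that holds back the outgrowth of axillary buds in several plants. In VIGS a modified plant virus carries a piece of a plant gene, and the RNA interference of the plant then lowers the matching transcript, usually in part and not in every cell. IDs called newGene are commonly given to transcribed stretches that an assembly of the reads places outside the annotated genes. The sources used here do not say how these were defined, where they lie or what they encode, so no position, sequence or function is given.

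Absolute sequencing depth is unknown. Depth relative to 3798 control 1, read from the most frequent ratio between low values, ranged from 0.909 to 1.33. Few IDs shared that ratio, from 24 in 3798 silenced 3 to 59 in 3798 silenced 4, so these depths are rough. Between 9.91% and 12.5% of all IDs were listed at 0 in a library. Some libraries stood apart. JX silenced 4 carried RNA of many loci that were otherwise seen in controls, as described below. Leaving out 3798 control 3 raised the number of IDs called between the control groups of the strains from 16416 to 21330.

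The silenced-on loci were of moderate abundance. The median level of a locus over the 8 silenced libraries ranged from 1.52 to 26.6 FPKM, with 5 loci at 10 FPKM or more, 15 between 5 and 10 FPKM and 25 below 5 FPKM. The most abundant, newGene_17284, stood at 29.9, 25.6, 25.2 and 17.6 FPKM in the silenced libraries 1 to 4 of 3798, and at 27.7, 32.1, 33.9 and 16.3 FPKM in those of JX. It was not silent in controls, which ranged from 0.229 FPKM in JX control 2 to 0.949 FPKM in 3798 control 4. The lowest silenced library was 17.2-fold above the highest control, where the rule asked for over 8-fold. The library numbered 4 was the lowest of its group in both strains.

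Other abundant silenced-on loci had almost no RNA in controls. The level of newGene_19808 was 15.6, 15.99, 13.9 and 12.3 FPKM in 3798 silenced and 16.6, 17.7, 16.1 and 12.04 FPKM in JX silenced, and it was listed at 0 in every control except 3798 control 2, at 0.357 FPKM. The level of newGene_8984 was 12.2, 14.5, 9.58 and 11.5 FPKM in 3798 silenced and 14.6, 18.6, 13.8 and 12.3 FPKM in JX silenced, with 0.0510 FPKM in JX control 3 and 0 listed in the other 7 controls. The lowest silenced library was 33.7-fold above the single control with any RNA for newGene_19808 and 188-fold for newGene_8984. The rule asked for over 8-fold. The level of newGene_9749 was 12.8, 16.3, 15.5 and 10.4 FPKM in 3798 silenced and 15.6, 17.1, 14.8 and 17.3 FPKM in JX silenced, and 0 was listed in all 8 controls. The level of newGene_16900 was 16.6, 13.2, 10.3 and 9.02 FPKM in 3798 silenced and 13.1, 11.6, 15.1 and 7.64 FPKM in JX silenced, again with 0 listed in all 8 controls.

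**Figure D1:**
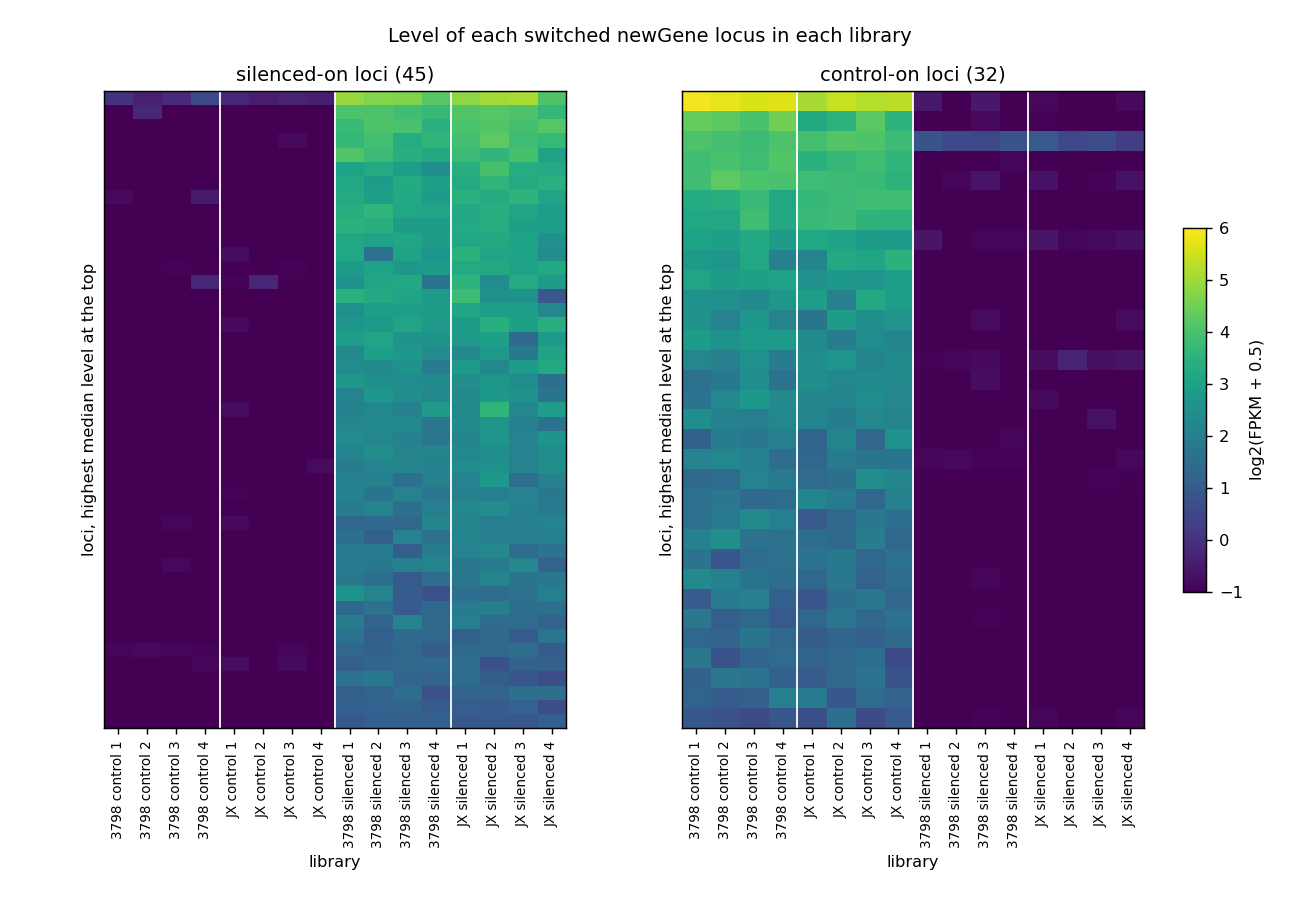
Level of each of the 77 loci (rows) in each of the 16 libraries (columns), as log2(FPKM + 0.5). The left panel holds the 45 silenced-on loci and the right panel the 32 control-on loci, and the white lines separate the groups of 4. The rule itself makes the switch run along the label in both strains. In the third row of the right panel, newGene_17468 keeps a visible level in all 8 silenced libraries.

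The control-on loci had medians over the 8 controls from 1.26 to 44.9 FPKM, a wider range through newGene_2353 alone. The next highest median was 16.6 FPKM, below the 26.6 FPKM of the highest silenced-on locus. Of the 32 loci, 7 were at 10 FPKM or more, 6 between 5 and 10 FPKM and 19 below 5 FPKM. The most abundant, newGene_2353, was at 57.8, 53.0, 47.9 and 50.05 FPKM in 3798 controls and at 33.5, 41.9, 36.9 and 38.3 FPKM in JX controls. In silenced libraries it did not exceed 0.199 FPKM and was listed at 0 in 4 of the 8. The second, newGene_13487, was at 20.0, 18.3, 15.3 and 22.3 FPKM in 3798 controls and at 9.05, 11.1, 17.8 and 10.98 FPKM in JX controls. It was listed at 0 in 5 silenced libraries and was highest in 3798 silenced 3, at 0.0601 FPKM. The ratio of the lowest control to the highest silenced library was 169 for newGene_2353 and 150.5 for newGene_13487, where the rule asked for over 8.

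One control-on locus kept a steady low level under the other label. The level of newGene_17468 was 16.004, 14.8, 13.3 and 15.9 FPKM in 3798 controls and 14.9, 17.04, 16.5 and 13.5 FPKM in JX controls. In silenced libraries it was at 1.26, 0.957, 0.943 and 1.27 FPKM in 3798 and at 1.44, 0.937, 1.07 and 0.713 FPKM in JX. All 8 silenced libraries thus held RNA of it, and the lowest control was 9.22-fold above the highest of them. By contrast, newGene_7444 was at 14.1, 15.3, 14.1 and 16.97 FPKM in 3798 controls and 10.6, 12.1, 14.1 and 11.8 FPKM in JX controls, and was listed at 0 in every silenced library except 3798 silenced 4, at 0.0479 FPKM. Both newGene_2621 and newGene_15782 were listed at 0 in all 8 silenced libraries. The controls of newGene_2621 were at 9.35, 10.1, 12.9 and 8.46 FPKM in 3798 and 12.2, 13.04, 13.9 and 13.8 FPKM in JX. Those of newGene_15782 were at 8.74, 8.68, 13.9 and 8.79 FPKM in 3798 and 12.9, 13.3, 11.3 and 10.9 FPKM in JX. In both, 3798 control 3 was the highest of its group and lay within or above the range of the JX controls.

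Across the loci, traces in the off libraries were few. Of the 45 silenced-on loci, 28 were listed at 0 in all 8 controls, 7 were above 0 in 1 control and 10 in 2 or more, and 318 of the 360 control values (88.3%) were 0. Of the 32 control-on loci, 14 were listed at 0 in all 8 silenced libraries, 7 were above 0 in 1 and 11 in 2 or more, and 201 of 256 values (78.5%) were 0. The summed level of the silenced-on loci in a control library was 0.118% to 0.572% of the sum of their medians in silenced libraries. That of the control-on loci in a silenced library was 0.492% to 0.920% of the sum of their medians in controls. The library 3798 silenced 3 held traces of 14 control-on loci, against 3 to 9 in the other 7 silenced libraries. It also had the highest relative depth, 1.33, read from a ratio that only 24 IDs shared. The part of depth in this count was not tested.

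The ratios of the lowest on library to the highest off library ran on past the limit of the rule. The silenced-on members with the smallest gap were newGene_12998, whose lowest silenced library (2.78 FPKM) was 8.02-fold above its highest control (0.346 FPKM), and newGene_18018, at 1.18 and 0.0911 FPKM, a ratio of 12.96. Just outside, newGene_9777 reached a ratio of 7.57 (1.201 and 0.159 FPKM) and newGene_13343 a ratio of 6.66 (1.86 and 0.280 FPKM). Among control-on loci, newGene_15783, with a ratio of 11.4 (3.42 and 0.300 FPKM), came next to newGene_17468. Just outside were newGene_17476, with a ratio of 6.08 (3.08 and 0.506 FPKM), and newGene_4971, with a ratio of 3.78 (1.61 and 0.426 FPKM). Like newGene_17468, newGene_17476 was above 0 in all 8 silenced libraries.

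The rule also sets a floor under the on libraries, so their spread is given as a description. The highest library was a median of 2.08 times the lowest for silenced-on loci and 2.15 times for control-on loci, and it was below 2 times for 20 of 45 and 13 of 32. Among the steadiest were newGene_10338, at 1.42, 1.64, 1.69 and 1.76 FPKM in 3798 silenced and 1.40, 1.41, 1.33 and 1.63 FPKM in JX silenced, and newGene_2891, between 3.76 and 4.996 FPKM in all 8. Among control-on loci newGene_17468 varied by 1.28 times and newGene_6074, between 6.23 and 9.10 FPKM, by 1.46 times. The widest spread was that of newGene_5515, at 10.4, 9.16, 8.01 and 6.34 FPKM in 3798 silenced and 13.5, 5.58, 5.40 and 1.37 FPKM in JX silenced, a ratio of 9.80. It was followed by newGene_4076, at 5.53, 3.77, 1.59 and 1.16 FPKM in 3798 silenced and 2.43, 2.35, 2.58 and 3.54 FPKM in JX silenced. The widest among control-on loci were newGene_3981, from 1.45 to 4.61 FPKM, and newGene_7098, from 1.75 to 5.23 FPKM. Among the silenced-on loci JX silenced 4 was the lowest of the 8 on libraries for 15 of 45 and 3798 silenced 4 for 9, and their median levels relative to the locus median were 0.914 and 0.865, against 0.983 to 1.12 in the other 6.

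The rule was met by a larger share of newGene IDs than of other IDs. Silenced-on loci made up 0.554% of newGene IDs and 0.0803% of the 62297 other IDs (50 of them), and control-on loci 0.394% and 0.0482% (30 other IDs). Because newGene and other IDs can differ in level, the shares were also read among IDs at a like level. Of 3055 newGene IDs at 1 FPKM or more in all 8 silenced libraries 1.47% were switched, against 0.127% of 39320 other IDs, and of 2943 newGene IDs at that level in all 8 controls 1.09% were switched, against 0.0780% of 38475. The share of newGene IDs was the higher one in each of 4 classes of level and in both directions. It was 1.40%, 1.54%, 1.78% and 0.968% for silenced-on loci whose lowest silenced library was at 1 to 2, 2 to 5, 5 to 10 and 10 or more FPKM, and 1.14%, 0.943%, 1.14% and 1.42% for control-on loci. For other IDs it lay between 0.0407% and 0.250%. As the rule itself sets these shares, they were not tested.

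**Figure D2:**
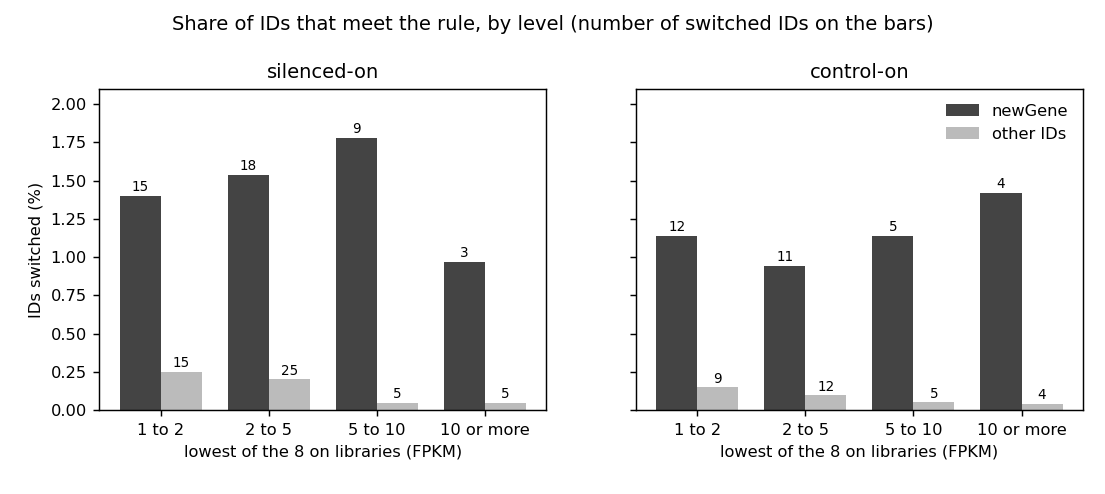
Percent of IDs that met the rule (y axis) by the level of the lowest of the 8 on libraries in FPKM (x axis), for newGene IDs (dark) and other IDs (light), with the number of switched IDs on each bar. In every class the newGene share, between 0.943% and 1.78%, is above that of the other IDs, between 0.0407% and 0.250%.

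How far each strain carried the switch was read by applying the same level and gap to 4 libraries against 4. In 3798, 70 newGene loci (0.862%) were on in silenced and off in control libraries and 74 (0.911%) the other way. In JX the counts were 60 (0.738%) and 37 (0.455%). These comparisons share no library. Of the silenced-on loci 46 were found in both strains, which is 65.7% of those in 3798 and 76.7% of those in JX. Of the control-on loci 33 were found in both, 44.6% of those in 3798 and 89.2% of those in JX. In 0 loci was the direction opposite between the strains. How many shared or opposite loci unrelated lists of these sizes would give was not worked out, so these are counts only. Other IDs on in silenced and off in control libraries were 94 in 3798 and 119 in JX. The other way they were 74 in 3798 and 52 in JX, and their overlap was not counted. One library set the low count of control-on loci in JX. Without JX silenced 4 it was 70, and 62 loci were shared, 83.8% of those in 3798 and 88.6% of those in JX. The silenced-on loci in JX rose from 60 to 80 without it, and 53 were shared, 75.7% of those in 3798 and 66.2% of those in JX.

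Between the strains no such switch was seen. With the same level and gap, 0 of 70422 IDs (0%) were on in one strain and off in the other among controls, in either direction, and 0 of 70422 (0%) among silenced libraries. The newGene ID with the widest gap was newGene_17743, higher in 3798 controls, where its lowest library (2.004 FPKM) was 3.28-fold above the highest JX control (0.610 FPKM). In silenced libraries it was newGene_4820, whose lowest 3798 library was 1.93-fold above the highest JX library. Leaving out single libraries gave 0 or 1 newGene locus in each of these strain comparisons. Among other IDs the gap came closer to the limit, at 7.34-fold for Gh_A10G082900, higher in 3798 controls, and 5.79-fold for Gh_A06G230700, higher in JX controls. The contrast between these counts and those of silenced against control was not tested. At this level and gap, with all libraries kept, on/off loci were counted between silenced and control libraries and not between the strains. Whether each library's strain and treatment labels are right could not be checked in these data, which bears on every value given here by label.

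**Figure D3:**
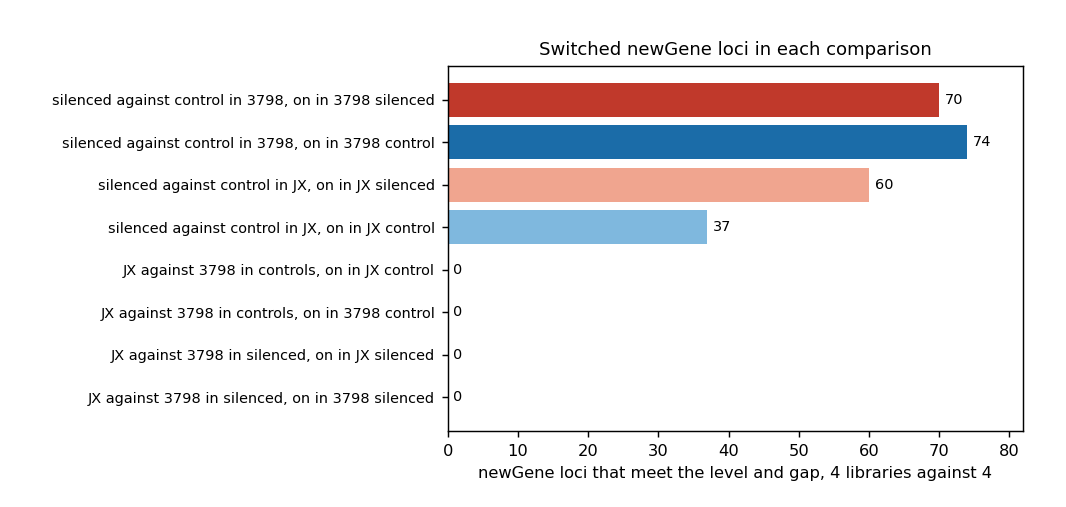
Number of newGene loci (x axis) at 1 FPKM or more in all 4 libraries of one group and over 8 times the highest library of the other, by the lowest of the 4, for each comparison and direction (y axis). Silenced against control gives 37 to 74 loci in a direction, and JX against 3798 gives 0.

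In JX silenced 4 and in 3798 silenced 3, 9.91% of IDs were listed at 0, the lowest share of the 16 libraries, at relative depths of 1.10 and 1.33. How many more loci meet the rule without a library tells how many that library alone kept out. Each library was therefore left out in turn, loci were chosen on the other 15, and the left-out library was then read. For each of the 15 libraries other than JX silenced 4, between 45 and 50 silenced-on and between 32 and 34 control-on loci were chosen. The left-out library meets the rule, by definition, in the same 45 and 32 loci each time. Only the number chosen can vary, so the 45 and 32 say nothing about the labels. JX silenced 4 was different. On the other 15 libraries 60 control-on loci were chosen (0.738% of newGene IDs), and JX silenced 4 kept to the silenced side in 32 and held RNA of the other 28. For 52 silenced-on loci (0.640%) chosen in this way, it met the rule in 45.

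The rule itself splits the 60 control-on loci by JX silenced 4, which met it in 32 and missed it in 28. In the 32 loci, the level in JX silenced 4 was between 0% and 4.62% of the median control. In the other 28, it was between 14.7% and 103%, with a median of 38.7%, and 0 loci lay between 5% and 12.5%. Wider gaps lay within the 28, from 14.7% to 27.5% and from 74.1% to 103%, so separate classes are not shown. The most abundant of the 28, newGene_18934, was at 13.7 FPKM in JX silenced 4, with controls from 33.6 to 57.5 FPKM and 0 listed in all 7 other silenced libraries. It was followed by newGene_1507, at 8.26 FPKM against 19.1 to 29.6 FPKM in controls and at most 0.0338 FPKM in the 7 other silenced libraries. In both, JX silenced 4 lay below every control and far above every other silenced library. The silenced-on loci did not fall to 0 in JX silenced 4: all 52 were at 12.5% or more of the median of the 7 other silenced libraries, 43 of them at 50% or more. The 7 that missed the rule only there were at 30.4% to 41.3%.

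**Figure D4:**
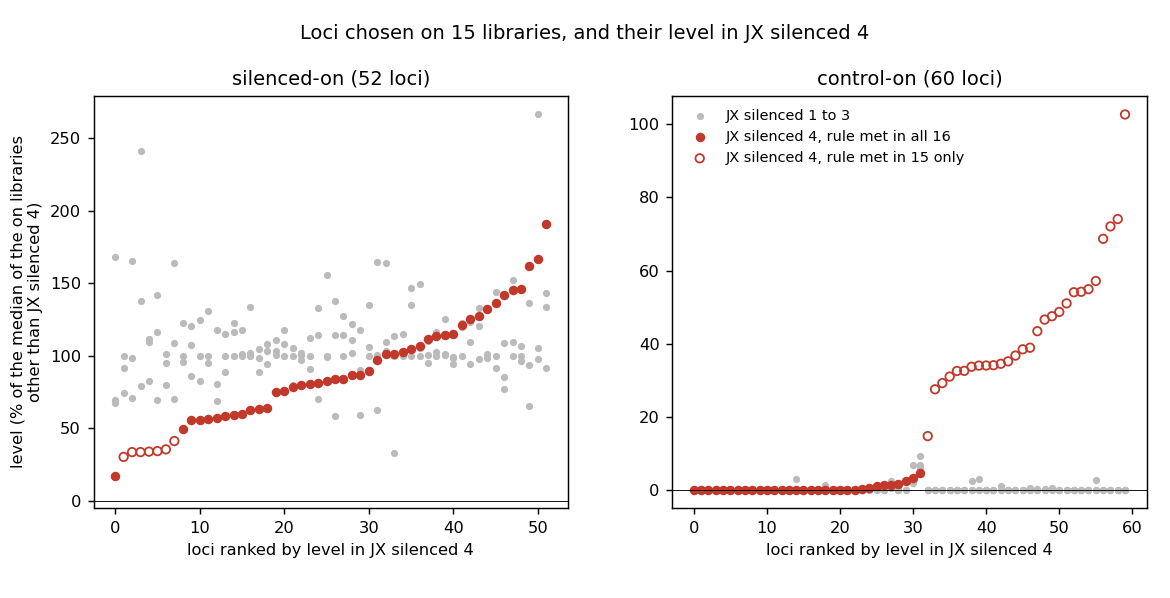
Level in JX silenced 4 (red) and in JX silenced 1 to 3 (grey) as percent of the median of the on libraries other than JX silenced 4 (y axis), for loci chosen on the other 15 libraries and ranked by their level in JX silenced 4 (x axis); the 2 panels have different y scales. Filled points are loci that met the rule in all 16 libraries, and open points are those kept out by JX silenced 4. In the right panel 32 loci stay at or below 4.62% and 28 rise to between 14.7% and 103%.

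The rule set a floor on the on values of both strains but did not compare the strains within a label. This contrast was tested by limma on log2(FPKM + 0.5) over 55040 IDs with Benjamini-Hochberg adjustment. The fit takes 1 spread from all 4 groups, including those where a locus is near 0. Values listed at 0 there add no spread, so the SE and p of these loci tend to be too small. In controls, 7 of the 32 control-on loci differed between JX and 3798 at an adjusted p under 0.05 by limma, 21.9%, against 29.8% of all IDs tested and 14.7% of newGene IDs tested. Of these 2 were higher in JX (17.6% of all IDs were) and 5 lower in JX (12.2% of all IDs were). Among newGene IDs, 303 were higher and 540 lower in JX. With median-ratio scaling 1 of 8 loci called was higher in JX (8733 of 16475 among all IDs called). With quantile normalization it was 1 of 9 (8263 of 16182 among all IDs called). Of the 32 loci, 14 were listed at 0 in all 8 silenced libraries, which lowers the spread of the fit for them. The shares therefore cannot be set against each other. That of the control-on loci also rests on 7 loci, and their number moved with the setting. The median log2 difference, JX minus 3798, was -0.03 for the control-on loci, -0.07 for newGene IDs and 0.03 for all IDs tested. With median-ratio scaling it was -0.08 for the control-on loci and -0.01 for all IDs. With only the 2 control groups fitted, 3 loci were called, newGene_2350, newGene_2353 and newGene_13487, all lower in JX. Among all IDs 14014 were then called, against 16416 in the main fit. The number of loci called depended on the setting in other ways too. It was 2 with a pseudocount of 0.1 FPKM (16365 of all IDs) and 10 with libraries weighted by their spread (23758 of all IDs). Leaving out 1 library gave between 3 loci, without 3798 control 2 (10650 of all IDs), and 9 loci, without 3798 control 3 (21330 of all IDs).

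Loci called lower in JX included newGene_2353 and newGene_13487, the most abundant locus and the second. The third, newGene_17468, was not called, at a log2 difference of 0.04 (limma adjusted p = 0.85). The mean of newGene_2353 was 52.2 ± 4.28 FPKM (SD, n = 4) in 3798 controls and 37.6 ± 3.46 FPKM (SD, n = 4) in JX controls, and the groups did not overlap. Its log2 difference was -0.47 (SE 0.127, limma adjusted p = 0.013). The locus newGene_2350, with a nearby ID number, was at 6.63, 5.50, 6.47 and 6.36 FPKM in 3798 controls and 4.48, 3.37, 4.79 and 4.15 FPKM in JX controls, again without overlap, and was listed at 0 in all 8 silenced libraries. Its log2 difference was -0.53 (SE 0.123, limma adjusted p = 0.0063). In newGene_13487 the groups overlapped through JX control 3, and the log2 difference was -0.64 (SE 0.169, limma adjusted p = 0.011). Calls for newGene_2350 and newGene_13487 were kept under all 25 alternatives run, and that for newGene_2353 under all but the pseudocount of 0.1 FPKM (limma adjusted p = 0.29). The remaining calls lower in JX were newGene_3981 at -0.54 (SE 0.179, limma adjusted p = 0.032) and newGene_7444 at -0.31 (SE 0.111, limma adjusted p = 0.048).

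The other 2 loci called were higher in JX, and neither passed with only the control groups fitted, nor did newGene_3981 and newGene_7444. The mean of newGene_2621 was 10.2 ± 1.91 FPKM (SD, n = 4) in 3798 controls and 13.2 ± 0.800 FPKM (SD, n = 4) in JX controls, and they differed by 0.38 on the log2 scale (SE 0.122, limma adjusted p = 0.030). The level of newGene_18232 was 2.60, 3.05, 4.94 and 2.58 FPKM in 3798 controls and 5.13, 4.33, 4.47 and 4.39 FPKM in JX controls, and the strains differed by 0.46 on the log2 scale (SE 0.165, limma adjusted p = 0.046). In both, 3798 control 3 was the highest of its group and overlapped with JX. The call for newGene_18232 was lost in 20 of 25 alternatives and that for newGene_2621 in 8 of 25.

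**Figure D5:**
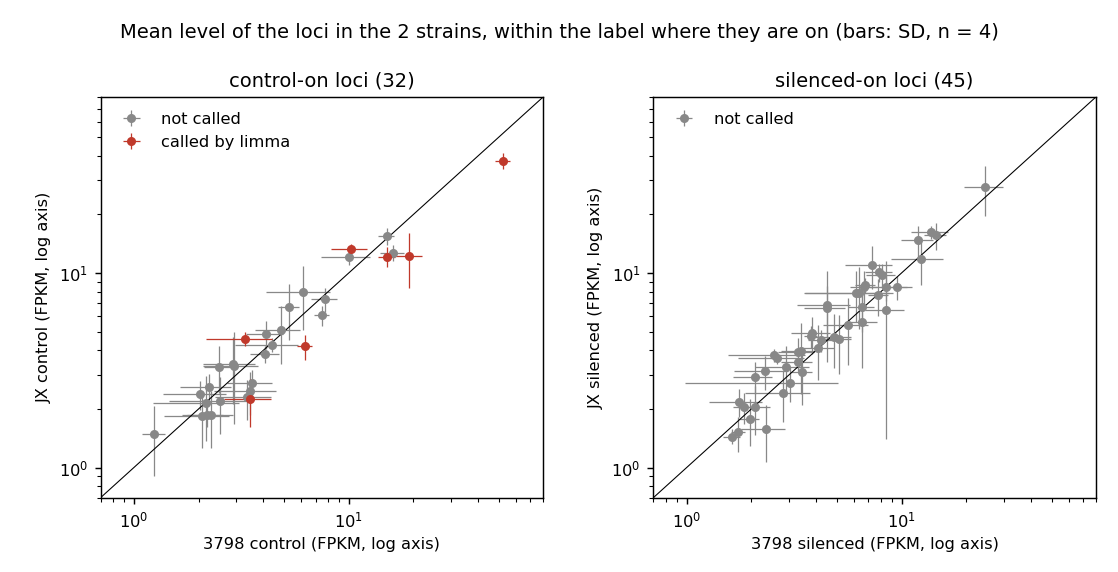
Mean level in JX (y axis) against 3798 (x axis) in FPKM on log axes, in controls for the 32 control-on loci (left) and in silenced libraries for the 45 silenced-on loci (right), with bars for the SD (n = 4) and the line of equal levels. Red points passed limma's adjusted p of 0.05: 7 control-on loci, of which newGene_2353 is the most abundant, and 0 silenced-on loci.

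In silenced libraries, 0 of the 45 silenced-on loci differed between the strains by limma, where 0% of all IDs did. At an unadjusted p under 0.05 there were 12 of 45 loci, and 4345 of 55040 IDs. Of the 45 loci, 28 were listed at 0 in all 8 controls, which lowers the spread of the fit for them. The counts therefore cannot be set against each other. The smallest p higher in JX was that of newGene_4443, at 7.84, 9.18, 7.14 and 4.87 FPKM in 3798 silenced and 10.04, 15.1, 9.51 and 9.28 FPKM in JX silenced. The groups did not overlap, and the log2 difference of 0.57 (SE 0.176) did not pass (limma adjusted p = 0.52). The smallest p lower in JX was that of newGene_4081, at 2.57, 2.99, 1.95 and 1.84 FPKM in 3798 silenced and 2.30, 1.57, 1.34 and 1.11 FPKM in JX silenced, and its log2 difference did not pass either.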

How the data were processed

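The authors deposited 1 table of FPKM for 70422 IDs in 16 libraries. The table's name gives the unit, and library totals lie between 552185 and 603167. Which aligner, counter, build, annotation and strand setting were used is not given in the sources used here, so reads of near-identical copies or of overlapping genes may have been split or joined, and a 0 is described as listed at 0. Groups and replicate numbers came from the titles, and columns were matched by the code in each sample's description. Of the IDs, 0 were found in a RefSeq table of 99454 genes, and 0 pairs of libraries were identical. No counts were given, so absolute depth and counting limits are unknown.

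IDs at 0.5 FPKM or more in at least 4 libraries (55040) were fitted by limma 3.58.1 in R 4.3.3 on log2(FPKM + 0.5), with 1 mean per group over all 16 libraries, trend and robust estimation, two-sided. All 77 loci passed this filter through the rule itself. The rest was computed in Python 3.11.15 (pandas 2.3.3, numpy 2.4.6, matplotlib 3.10.9). The loci, the rule and the lists were chosen with earlier results of these data known. Named loci are, per direction, the 4 highest, the 2 highest listed at 0 in every off library, the 2 nearest the limit on each side, the 2 steadiest and the 2 most variable, and those leading the strain comparison. Loci named for JX silenced 4 or for a wide strain gap were chosen after their values were seen. Alternatives are given in the closing section.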

Additional observations from a re-analysis of the deposited data

Results flagged for a closer look

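In 127 groups of 4 values, over 29 named loci and the library summaries, 23 held 1 value far from the other 3, and chance flags about 5% of groups. In 12 of the 23 the other 3 values were 0, so that any value above 0 stands out and the 5% does not hold.

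Among levels where a locus was on, newGene_15782 was at 13.9 FPKM in 3798 control 3, with the next control of 3798 at 8.79 FPKM. The level of newGene_2891 was 4.99 FPKM in 3798 silenced 2, with the next at 3.98 FPKM, and newGene_4443 reached 15.1 FPKM in JX silenced 2, where the other 3 libraries of the group reached 10.04 FPKM.

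Among traces where a locus was off, 3798 control 4 (0.346 FPKM) and JX control 2 (0.344 FPKM) stood out for newGene_12998. For newGene_4971 it was 3798 silenced 1 (0.426 FPKM, next 0.00901 FPKM). The other 3 libraries of the group were listed at 0 for newGene_19808 in 3798 control 2 (0.357 FPKM), newGene_8984 in JX control 3 (0.0510 FPKM) and newGene_18018 in 3798 control 4 (0.0387 FPKM). The same held for newGene_13487, newGene_3981 and newGene_18232 in 3798 silenced 3 (0.0601, 0.0123 and 0.0918 FPKM) and for newGene_7444 and newGene_7098 in 3798 silenced 4 (0.0479 and 0.0293 FPKM).

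Among library summaries, the silenced-on loci summed to 1.57 FPKM in 3798 control 4 (next 0.696 FPKM) and the control-on loci to 2.01 FPKM in JX silenced 1 (next 1.40 FPKM). Traces of 14 control-on loci were seen in 3798 silenced 3 (next 5). In JX silenced 2, 11.4% of IDs were listed at 0 (next 10.1%). Leaving out JX silenced 4 added 28 control-on loci, and leaving out any other JX silenced library added 0. Leaving out 3798 control 1 added 2 silenced-on and 2 control-on loci, leaving out 3798 silenced 1 added 1 control-on locus, and leaving out JX control 2 added 0 where each of the other JX controls added 2.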

How the results depend on the processing

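The number of silenced-on loci stayed within 1.5 times of 45 under other levels (0.5 and 2 FPKM), gaps (4-fold and 16-fold) and median-ratio scaling, at 30 to 57, and at 45 to 52 with single libraries left out. The number of control-on loci fell from 32 to 20 at a level of 2 FPKM and was between 32 and 60 with single libraries left out, 60 being without JX silenced 4. At 2 FPKM the loci switched within a strain were 44 on in 3798 silenced, 48 on in 3798 control and 23 on in JX control. Leaving out single libraries, added after the data were seen, gave 37 to 70 loci on in JX control and off in JX silenced (70 without JX silenced 4). It gave 0 to 1 locus in each direction between the strains in controls, 0 to 1 on in 3798 silenced and off in JX silenced, and at a level of 0.5 FPKM 1 locus was on in JX silenced and off in 3798 silenced. The 7 control-on loci called between strains became 2 with a pseudocount of 0.1 FPKM (16365 of all IDs) and 3 with only the control groups fitted (14014 of all IDs). With single libraries left out they were 3 to 9: 3 without 3798 control 2, and 4 without 3798 control 1 or without JX control 4. The IDs called in all were then 10650 to 21330, the lowest without 3798 control 2. Between strains in silenced libraries limma called 4 IDs with no filter, 3 with library weights, 2 with only the silenced groups fitted, and 0 to 4 with single libraries left out, none of them a silenced-on locus. Same-numbered libraries are tied by the number and by the order of the column codes. These codes run through all groups of a replicate number before the next number, and what this order means is not said. Their deviations correlated between -0.0847 and 0.107 in controls (different numbers -0.116 to 0.143) and between 0.0456 and 0.357 in silenced libraries (different numbers -0.285 to 0.0920). In silenced libraries 6 of 8, and in controls 1 of 8, correlated best with their own number. The 8 readings under a label share the same correlations, so they are not separate. They are a hint from the data, and the labels state no pairing. With a replicate block 5 control-on loci and 15570 IDs were called between controls, and 0 of both in silenced libraries. Why these counts moved was not tested.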

Other observations

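Some switched loci had neighbouring ID numbers. The numbers run from 2 to 20523 over 8125 newGene IDs, and the sources used here do not say what their order means. Among the 77 loci, 2 pairs had consecutive numbers, newGene_4306 with newGene_4307 (both silenced-on) and newGene_15782 with newGene_15783 (both control-on). A window of 10 numbers, chosen after the data were seen, held 12 pairs, of which 10 had the same direction. How many pairs 77 other newGene IDs would give was not worked out, so grouping by number is not shown. The 10 include newGene_7854, newGene_7856 and newGene_7861, all silenced-on, whose pairs with each other are not separate. They also include newGene_2350 with newGene_2353, both control-on and both lower in JX than in 3798 controls. The 2 pairs of opposite direction were newGene_7089 with newGene_7098 and newGene_19800 with newGene_19808.

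Among the 28 control-on loci with RNA in JX silenced 4, newGene_11936, newGene_11939, newGene_11948 and newGene_11951 stood close in number, and their levels there were 43.4%, 72.1%, 54.2% and 68.7% of the median control. They were picked out after their values were seen. The lowest of the 28, newGene_16989, was at 0.521 FPKM, 14.7% of its median control, and the highest, newGene_12635, at 1.97 FPKM, 103% of it.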
